A study of Mus musculus with 20 samples.

Results

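The Ms4a genes encode small membrane proteins that cross the membrane 4 times, and 9 of them are described here across macrophages exposed to airway fluid fractions. The members are Ms4a4a, Ms4a4b, Ms4a4c, Ms4a6b, Ms4a6c, Ms4a6d, Ms4a7, Ms4a8a and Ms4a14. They were selected from earlier results of these same libraries, so the table rows with these 9 names were taken, of 21 rows whose name begins with Ms4a and 78409 rows in all. Which values chose them was not recorded. The fold changes, p-values and calls of the members are therefore given as a description in every comparison, those between donors and fractions included. They support nothing by themselves. The other 12 Ms4a genes are accounted for further on.

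Bone marrow-derived macrophages (BMDMs) were grown from the marrow of wild-type female C57BL/6J mice in medium conditioned by L929 fibroblasts, seeded at 200000 cells per well and treated on day 7 of culture. The 5 groups held 4 libraries each. One group received PBS. The other 4 received material from bronchoalveolar lavage fluid (BALF) of mice with airway inflammation induced by the antigen ovalbumin (OVA), and the donors either carried the small noncoding Y RNA gene RNY1 (RNY1+/+) or lacked it (RNY1-/-). The RNY1-/- mice were obtained from GemPharmatech, and the study describes all other mice as wild-type C57BL/6J. Whether the donors of both genotypes were littermates was not stated. The donor's genotype and the colony it came from therefore cannot be told apart. The mice of the study were 7 to 16 weeks old. Size exclusion chromatography split the fluid into a fraction enriched in extracellular vesicles (EVFx, column fractions 1 to 4) and one enriched in soluble protein (ProteinFx, column fractions 9 to 20), which were concentrated to 160 µL and kept cold for 5 days. EVFx were added at 35000000 particles per µL and ProteinFx at 0.75 µg of protein per µL, so the type of fraction and its dose cannot be told apart, whereas donors of either genotype were compared at a matched dose. The deletion was in the donors of the fluid and not in the macrophages, so no macrophage gene checks it. The time from treatment to lysis was not given in the sources used here. Nor was it stated if the 4 libraries per group stem from separate fluid pools or cultures, so the p-values below measure only the spread between these libraries, which may be technical.

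The family includes the B cell surface protein CD20, encoded by Ms4a1, and the beta chain of the high-affinity IgE receptor of mast cells, encoded by Ms4a2. These proteins sit beside signalling receptors in the membrane and adjust how strongly the receptors signal. In macrophages, MS4A4A associates with dectin-1 (Clec7a), a receptor for fungal beta-glucan, and variants at the human MS4A locus are linked to the level of soluble TREM2, a lipid receptor of macrophages and microglia. Ms4a8a is known as a gene of alternatively activated macrophages, Ms4a4b is best known from T cells, and Ms4a7 is common in tissue macrophages. Roles of Ms4a4c, Ms4a6b, Ms4a6c, Ms4a6d and Ms4a14 in macrophages are less settled.

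The 9 genes lie in 1 cluster on mouse chromosome 19. In the GENCODE annotation of build GRCm38, which is not the GRCm39 build that the submitters' processing notes name, Ms4a8a spans chr19:11067471-11081102, Ms4a14 chr19:11301249-11314454 and Ms4a7 chr19:11321039-11336146, all on the minus strand. On the plus strand follow Ms4a4a at chr19:11375523-11392790, Ms4a4c at chr19:11404770-11427246, Ms4a4b at chr19:11443553-11467055, Ms4a6c at chr19:11469366-11482192 and Ms4a6b at chr19:11516512-11531256. Beyond them lies Ms4a6d on the minus strand, at chr19:11586604-11604849. Some neighbours have promoters of like sequence. Over the 250 bases before the start, the Ms4a4b and Ms4a4c promoters were identical at 72.4% of 261 aligned columns, and those of Ms4a6b and Ms4a6c at 82.7% of 185 aligned columns. The starts are those of a RefSeq promoter table, and the windows of Ms4a4c and Ms4a6b lie inside the annotated genes. Their longest common runs were 20 and 48 bases, against 9 bases or fewer in every other pair of members with an entry, among them Ms4a4a with Ms4a4b (56.0% identical) and Ms4a4a with Ms4a4c (53.1%).

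The upstream stretches of 3 of these genes are printed because the pairs they belong to are compared below in every library. They come from the RefSeq promoter table of build GRCm38.p6, read on the plus strand and cut so as to hold no base of an annotated exon of the gene. Capitals mark runs of at least 12 bases shared with the paired promoter. The first is chr19:11443408-11443552, the second chr19:11407511-11407660, which lies inside the annotated Ms4a4c gene but in no exon of it, and the third chr19:11469218-11469365.
Ms4a4b: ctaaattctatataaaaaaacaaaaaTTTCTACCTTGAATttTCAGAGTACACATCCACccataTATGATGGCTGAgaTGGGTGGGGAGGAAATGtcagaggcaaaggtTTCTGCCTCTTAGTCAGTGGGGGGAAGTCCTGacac
Ms4a4c: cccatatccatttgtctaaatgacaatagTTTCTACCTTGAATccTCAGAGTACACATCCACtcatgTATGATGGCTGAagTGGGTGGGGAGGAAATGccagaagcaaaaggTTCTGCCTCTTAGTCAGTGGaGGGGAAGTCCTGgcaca
Ms4a6c: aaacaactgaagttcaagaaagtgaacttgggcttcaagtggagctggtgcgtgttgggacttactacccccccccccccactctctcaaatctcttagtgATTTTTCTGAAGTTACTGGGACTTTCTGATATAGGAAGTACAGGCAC
In the Ms4a4 pair, 92 bases of each stretch are in shared runs. In the Ms4a6 pair, 47 of the 48 shared bases fall in the Ms4a6c stretch printed. The same 48 bases stand at chr19:11518441-11518488, before the RefSeq start of Ms4a6b but inside the annotated Ms4a6b gene. The Ms4a6b stretch is not printed because 106 of its 150 bases are in annotated exons of the gene.

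Short motifs were searched on both strands in the 250 bases before each start, with 9 promoter entries for 8 members, since Ms4a7 has 2 entries and Ms4a6d none. AGGAAGT, a site form of the macrophage ETS factor PU.1, was found in the windows of Ms4a6b and Ms4a6c. It was in 7.69% of the 32851 promoters of the table, and in the Ms4a6c sequence it lies within the shared capitals. TGANTCA, the AP-1 form, was found before Ms4a7, Ms4a14 and Ms4a8a and in 6.75% of all promoters. The core of the interferon-stimulated response element, GAAA followed after any 2 bases by a second GAAA, was in 0 of the 9 entries and 2.98% of all, and TTCNNNGAA, a STAT form, in 0 of the 9 and 7.02% of all. These matches are descriptions of letters in a window and say nothing of whether a factor binds.

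Total counts ranged from 2510005 to 8277366 per library (median 5456425). All 8 macrophage markers, among them Adgre1 (F4/80), Csf1r and Lyz2, were detected in every group, with summed levels of 8620 to 12968 CPM (counts scaled to a common library total) per library. The marker lists of the cell types in which other family members are best known summed to 1.04 to 4.34 CPM for B cells, 0.259 to 9.43 CPM for T cells and 0.253 to 2.29 CPM for mast cells or basophils over the 20 libraries. In any library, the highest of these markers were Cd79b with 15 counts, Cd4 with 47 and Hdc with 8, whereas Cd79a had at most 2, Cd3e 1 and Cpa3 2. The 4 RNY1-/- ProteinFx libraries fell into 2 pairs. The mean squared difference between libraries, relative to that from counting alone, was 3.50 for replicates 1 and 2, 2.57 for replicates 3 and 4, but 13.3 to 15.7 across the pairs. Over all pairs of replicates in the series it was 2.30 to 34.8, with PBS replicate 3 farthest from the rest of its group. CPM is not corrected for gene length, so levels are compared below between groups for 1 gene and not between genes.

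The 9 members together took a growing part of the transcripts. Their summed level was 2018 ± 157 CPM in PBS (SD, n = 4 here and for each group value below). It was 4107 ± 379 CPM with RNY1+/+ EVFx and 4313 ± 574 CPM with RNY1-/- EVFx. With ProteinFx it was 6979 ± 225 CPM for RNY1+/+ donors and 5868 ± 303 CPM for RNY1-/- donors. The ranges of the EVFx groups overlapped, whereas the 4 RNY1+/+ ProteinFx libraries (6728 to 7267 CPM) were all above the 4 RNY1-/- ProteinFx libraries (5448 to 6145 CPM). In bulk RNA, a change in the share of cells that express a gene and a change in its RNA per cell cannot be told apart.

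**Figure D1:**
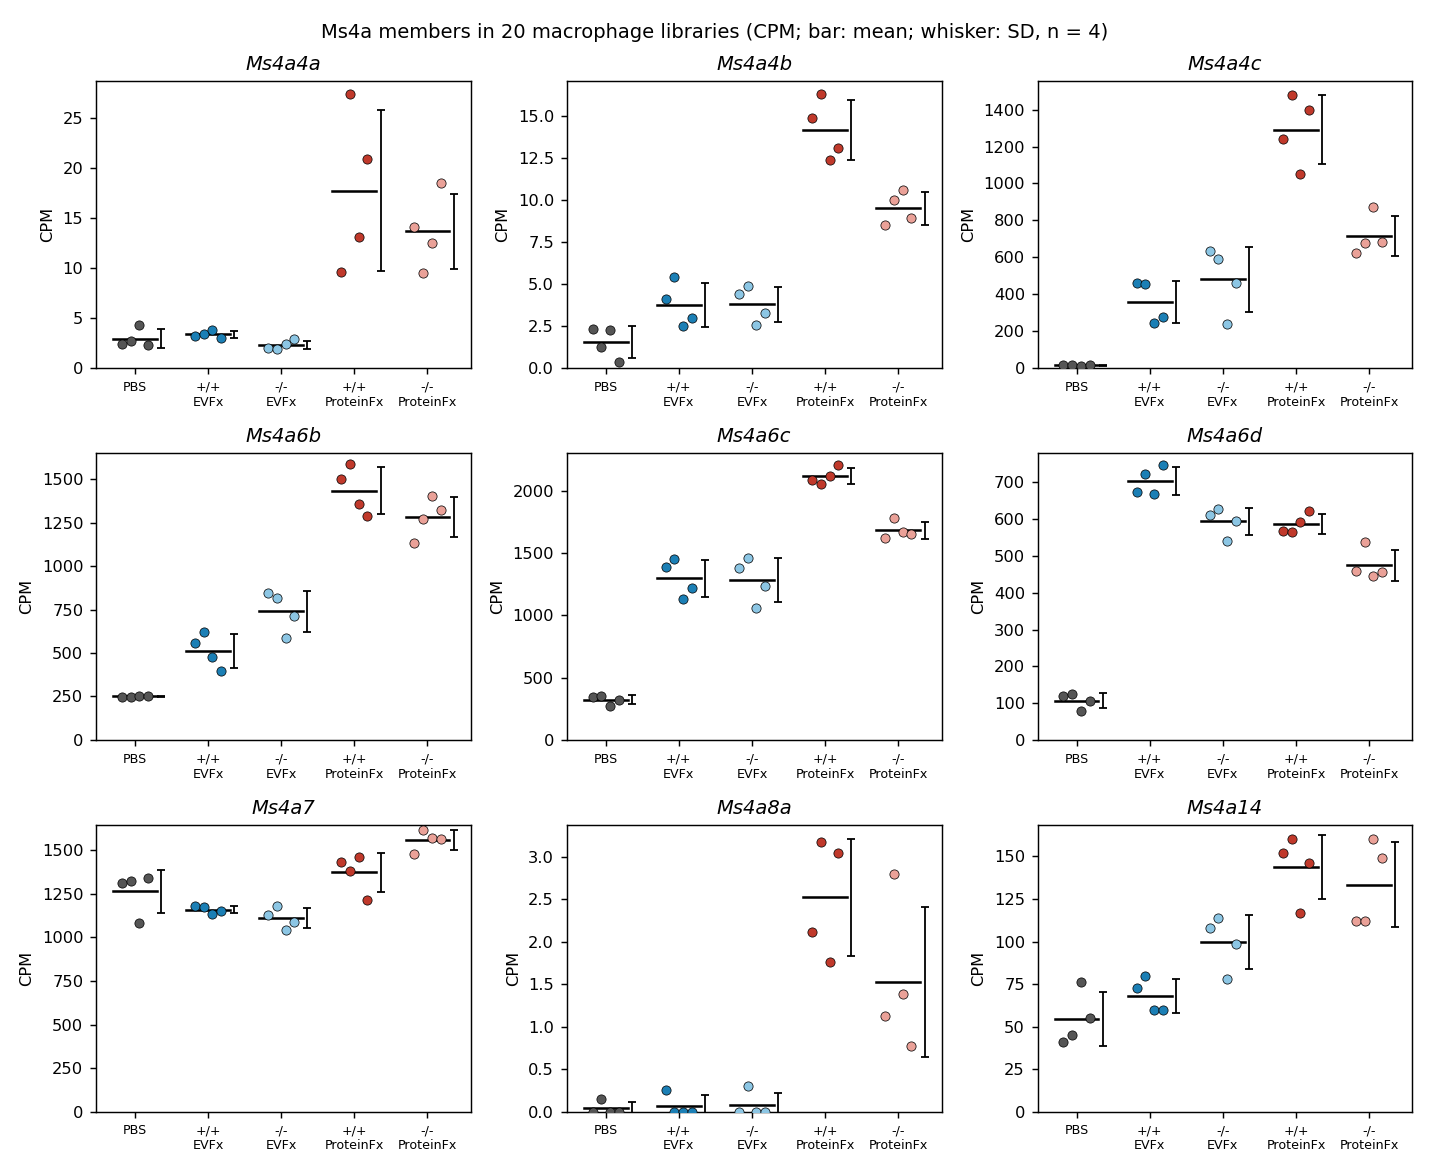
Level of each of the 9 members in CPM (vertical axes, from 0, a separate scale for each gene) in the 5 treatment groups. Points are single libraries, bars are group means and whiskers are SD (n = 4). Ms4a4c rises from 15.3 CPM in PBS to 1292 CPM with RNY1+/+ ProteinFx, whereas Ms4a7 stays between 1043 and 1617 CPM in the 20 libraries.

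Ms4a4c (ENSMUSG00000024675) had the widest range of the members as a fold between groups. In PBS its level was 19.2, 15, 12.8 and 14.4 CPM in replicates 1 to 4, a mean of 15.3 ± 2.71 CPM. With RNY1+/+ EVFx it was 462, 454, 243 and 278 CPM (mean 359 ± 115 CPM), and with RNY1-/- EVFx 632, 591, 238 and 462 CPM (mean 481 ± 177 CPM). These EVFx groups overlapped, and both were far above every PBS library. The levels reached 1240, 1480, 1051 and 1398 CPM with RNY1+/+ ProteinFx (mean 1292 ± 189 CPM). They were 623, 680, 870 and 684 CPM with RNY1-/- ProteinFx (mean 714 ± 107 CPM). All 4 RNY1+/+ ProteinFx libraries were thus above all 4 RNY1-/- ProteinFx libraries, whereas the next groups down, RNY1-/- ProteinFx and RNY1-/- EVFx, overlapped. The mean CPM relative to PBS was 23.4-fold with RNY1+/+ EVFx, 31.3-fold with RNY1-/- EVFx, 84.2-fold with RNY1+/+ ProteinFx and 46.6-fold with RNY1-/- ProteinFx.

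Ms4a4b (ENSMUSG00000056290), the neighbour of Ms4a4c, was a low gene. PBS libraries held 2.36, 1.24, 2.29 and 0.356 CPM (mean 1.56 ± 0.952 CPM). The RNY1+/+ EVFx libraries held 4.14, 5.44, 2.5 and 2.96 CPM, and the RNY1-/- EVFx libraries 4.40, 4.91, 2.59 and 3.28 CPM. The EVFx groups, at 3.76 ± 1.32 and 3.80 ± 1.06 CPM, overlapped, and their lowest library was just above the highest PBS library. The ProteinFx levels were 14.9, 16.3, 12.4 and 13.1 CPM for RNY1+/+ donors (mean 14.2 ± 1.77 CPM) and 8.5, 10, 10.6 and 8.95 CPM for RNY1-/- donors (mean 9.51 ± 0.950 CPM). These ranges were apart from each other and from the EVFx groups. The summed level of the 7 T cell markers was 2.74 to 9.43 CPM in PBS, 2.17 to 4.38 and 1.18 to 2.1 CPM with RNY1+/+ and RNY1-/- EVFx, and 0.868 to 1.91 and 0.259 to 4.48 CPM with RNY1+/+ and RNY1-/- ProteinFx, and its part in the Ms4a4b level was not tested.

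Ms4a4a (ENSMUSG00000101389), the member that associates with dectin-1, was high with ProteinFx. Its level was 2.46, 2.7, 4.35 and 2.31 CPM in PBS (mean 2.96 ± 0.941 CPM). It was 3.23, 3.44, 3.80 and 3.02 CPM with RNY1+/+ EVFx (mean 3.37 ± 0.334 CPM) and 1.97, 1.94, 2.46 and 2.86 CPM with RNY1-/- EVFx (mean 2.31 ± 0.440 CPM). The PBS range overlapped both EVFx ranges, while the EVFx groups lay just apart from each other. With RNY1+/+ ProteinFx the libraries held 9.57, 27.4, 13.1 and 20.9 CPM (mean 17.7 ± 7.99 CPM). With RNY1-/- ProteinFx they held 14.1, 9.51, 12.5 and 18.5 CPM (mean 13.7 ± 3.76 CPM). The ProteinFx groups overlapped, and every one of these 8 libraries was above all the others.

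Among the Ms4a6 genes, Ms4a6b and Ms4a6c had their highest group means with ProteinFx. Ms4a6b (ENSMUSG00000024677) measured 249, 246, 254 and 253 CPM in PBS, a tight group of 251 ± 3.91 CPM. The RNY1+/+ EVFx libraries held 558, 620, 479 and 394 CPM (mean 513 ± 97.9 CPM), and the RNY1-/- EVFx libraries 846, 817, 588 and 711 CPM (mean 740 ± 117 CPM). The RNY1-/- mean was the higher one, with overlap of 1 library from each side. ProteinFx libraries held 1501, 1584, 1356 and 1287 CPM for RNY1+/+ donors (mean 1432 ± 135 CPM) and 1134, 1268, 1404 and 1322 CPM for RNY1-/- donors (mean 1282 ± 114 CPM), and these ranges overlapped.

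Ms4a6c (ENSMUSG00000079419) measured 342, 353, 276 and 323 CPM in PBS (mean 323 ± 33.9 CPM). It was at 1391, 1452, 1130 and 1220 CPM with RNY1+/+ EVFx (mean 1298 ± 149 CPM) and at 1381, 1459, 1055 and 1236 CPM with RNY1-/- EVFx (mean 1283 ± 178 CPM). In this gene the EVFx groups lay on top of each other. The ProteinFx groups did not overlap, with 2089, 2050, 2120 and 2207 CPM for RNY1+/+ donors (mean 2117 ± 66.9 CPM) and 1619, 1782, 1670 and 1655 CPM for RNY1-/- donors (mean 1682 ± 70.4 CPM).

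Ms4a6d (ENSMUSG00000024679) had another order, with its highest level in an EVFx group. It measured 119, 126, 77.8 and 105 CPM in PBS (mean 107 ± 21.3 CPM). With EVFx it reached 674, 722, 668 and 747 CPM for RNY1+/+ donors (mean 703 ± 38.1 CPM) and 612, 628, 541 and 595 CPM for RNY1-/- donors (mean 594 ± 37.8 CPM). It was at 568, 564, 593 and 621 CPM with RNY1+/+ ProteinFx (mean 587 ± 26.4 CPM) and at 459, 538, 445 and 457 CPM with RNY1-/- ProteinFx (mean 475 ± 42.4 CPM). The RNY1+/+ range was above the RNY1-/- range in both fractions, while RNY1-/- EVFx and RNY1+/+ ProteinFx overlapped.

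Ms4a14 (ENSMUSG00000099398) rose by less, and each group in its order overlapped the next. Its level was 41.2, 44.8, 76.4 and 55.3 CPM in PBS (mean 54.4 ± 15.8 CPM). With EVFx it was 72.6, 79.6, 59.5 and 59.8 CPM for RNY1+/+ donors (mean 67.9 ± 9.92 CPM) and 108, 114, 78.1 and 98.8 CPM for RNY1-/- donors (mean 99.7 ± 15.7 CPM). With ProteinFx it was 152, 160, 117 and 146 CPM for RNY1+/+ donors (mean 144 ± 18.7 CPM) and 112, 112, 160 and 149 CPM for RNY1-/- donors (mean 133 ± 25.0 CPM). In the last group the library pairs 1 and 2 and 3 and 4, which stood apart over all genes, also stood apart in this gene.

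Ms4a7 (ENSMUSG00000024672) was nearly level. Its mean was 1263 ± 123 CPM in PBS, 1159 ± 20.5 and 1109 ± 57.1 CPM with RNY1+/+ and RNY1-/- EVFx, 1373 ± 112 CPM with RNY1+/+ ProteinFx and 1557 ± 57.9 CPM with RNY1-/- ProteinFx. The last group, at 1478 to 1617 CPM, was above every other library, and the other 4 groups overlapped in order.

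Ms4a8a (ENSMUSG00000024730), the gene of alternatively activated macrophages, was counted in ProteinFx libraries at low depth. Its counts were 0, 1, 0 and 0 in PBS, 2, 0, 0 and 0 with RNY1+/+ EVFx and 0, 2, 0 and 0 with RNY1-/- EVFx, all at or under the floor of 3 counts taken here as not measurable. They were 11, 12.5, 7 and 17.5 with RNY1+/+ ProteinFx and 6, 20, 3.5 and 3 with RNY1-/- ProteinFx. As a share of the library these were 2.11, 3.17, 1.76 and 3.04 CPM (mean 2.52 ± 0.692 CPM) and 1.13, 2.80, 1.39 and 0.778 CPM (mean 1.53 ± 0.885 CPM). Set against 3 counts per library, the RNY1+/+ ProteinFx mean was at least 4.38-fold higher than PBS and at least 5.83-fold higher than RNY1+/+ EVFx. The RNY1-/- ProteinFx mean was at least 2.66-fold higher than PBS and at least 2.93-fold higher than RNY1-/- EVFx, with 1 of its libraries at the floor. The gene was under the expression limit of the fits reported below. With no filter on low counts it was called higher with ProteinFx than with PBS and than with EVFx for both donors, but a fitted fold of a gene at these counts depends on the prior count and is not given.

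Of the 12 other Ms4a genes, 7 had no count in the 20 libraries (Ms4a5, Ms4a10, Ms4a12, Ms4a13, Ms4a15, Ms4a18 and Ms4a19). Ms4a1, which encodes CD20, reached at most 7 counts in a library and 34 in all 20. Ms4a3, known from myeloid progenitors, had 22 counts in all and Ms4a4d 10.5, with no library above 3, and Ms4a20 had 4 and Ms4a2 1. Tmem176a and Tmem176b, relatives of the family outside the cluster, were low and had another order than the Ms4a4 and Ms4a6 genes. Tmem176a rose from 2.33 ± 0.577 CPM in PBS to 13.1 ± 1.59 CPM with RNY1+/+ EVFx, 7.16 ± 0.756 CPM with RNY1-/- EVFx, 6.80 ± 0.618 CPM with RNY1+/+ ProteinFx and 7.96 ± 3.72 CPM with RNY1-/- ProteinFx. Tmem176b rose from 6.60 ± 1.91 CPM to 20.6 ± 2.72, 15.2 ± 1.42, 12.5 ± 3.05 and 15.9 ± 8.32 CPM in the same order.

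The comparison with PBS addressed how macrophages responded to the inflamed airway fluid. Ms4a4c, Ms4a6b, Ms4a6c and Ms4a6d were higher than PBS with all 4 materials, Ms4a14 with 3 of them, and Ms4a4a and Ms4a4b with ProteinFx. Ms4a4b averaged under the limit of 3 CPM over the EVFx and PBS libraries together, so it was not tested with EVFx against PBS. With edgeR's filterByExpr alone it was called higher with RNY1+/+ EVFx, at a log2 fold change of 1.5, and with RNY1-/- EVFx, at 1.60. Counts were fitted with edgeR's quasi-likelihood test across all genes, and a gene was called where its Benjamini-Hochberg adjusted p was under 0.05 and its log2 fold change beyond 1. The 4 comparisons share the same PBS libraries, so their likeness to each other is not a separate observation.

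With RNY1+/+ EVFx, 7 of the 9 members were tested and 4 were called higher, where 8.24% of the 10797 genes tested were. The log2 fold changes were 4.72 for Ms4a4c (standard error 0.25), 2.89 for Ms4a6d (0.15), 2.18 for Ms4a6c (0.12) and 1.21 for Ms4a6b (0.14). Those not called were 0.50 for Ms4a14 (0.19), 0.37 for Ms4a4a (0.24) and 0.05 for Ms4a7 (0.10), and Ms4a4b and Ms4a8a were not tested. The median was 1.21 over the members tested and -0.03 over all genes.

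With RNY1-/- EVFx, 6 members were tested and 5 were called higher, where 9.02% of 10729 genes were. The log2 fold changes were 5.21 for Ms4a4c (standard error 0.31), 2.71 for Ms4a6d (0.15), 2.23 for Ms4a6c (0.13), 1.80 for Ms4a6b (0.12) and 1.12 for Ms4a14 (0.19). Ms4a7 was at 0.05 (0.11). The median was 2.02 over the members and -0.03 over all genes. Over all genes, fold changes here followed the GC content of the transcripts (Spearman's rho of -0.43, taken across genes, and genes are no independent replicates). The members' transcripts hold 37.2% to 48.9% GC, and the GC content of all genes is not given here. With length and GC trends removed, the Ms4a14 value was 0.71 and no longer called, and when libraries were scaled by total counts instead it was 0.88. With the trends removed, Ms4a4c was at 4.79, Ms4a6d at 2.39, Ms4a6c at 1.81 and Ms4a6b at 1.31, all still called.

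Calls with ProteinFx included Ms4a4a and Ms4a4b. With RNY1+/+ ProteinFx, 7 of 8 members tested were called higher, where 8.96% of 10835 genes were. Ms4a4c stood at a log2 fold change of 6.56 (standard error 0.19), followed by Ms4a4b at 3.37 (0.34), Ms4a6c at 2.88 (0.12), Ms4a4a at 2.75 (0.35), Ms4a6b at 2.68 (0.11), Ms4a6d at 2.62 (0.15) and Ms4a14 at 1.58 (0.18). Ms4a7 was at 0.29 (0.11). Fold changes here also followed GC content over all genes (rho of -0.47). With length and GC trends removed, Ms4a4c was at 6.05, Ms4a4b at 2.84, Ms4a4a at 2.57 and Ms4a6c at 2.43. Ms4a6d was then at 2.29, Ms4a6b at 2.09 and Ms4a14 at 1.11, and all 7 were still called. Ms4a7 turned to -0.11. Ms4a4b and Ms4a4a, at under 3 CPM in PBS, passed the expression limit through the ProteinFx libraries, so their calls and the median that holds them follow in part from the limit. The median was 2.72 over the members and -0.03 over all genes.

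With RNY1-/- ProteinFx, the same 7 members were called higher of 8 tested, where 6.31% of 10855 genes were. The log2 fold changes were 5.61 for Ms4a4c (standard error 0.20), 2.67 for Ms4a4b (0.37), 2.45 for Ms4a6c (0.12), 2.43 for Ms4a6b (0.12), 2.28 for Ms4a4a (0.29), 2.22 for Ms4a6d (0.16) and 1.37 for Ms4a14 (0.22). Ms4a7 was at 0.37 (0.12). The median was 2.35 over the members and -0.03 over all genes. Fold changes followed GC content over all genes (rho of -0.51), and with length and GC trends removed Ms4a14 was at 0.96 and not called. Ms4a4c was then at 5.13, Ms4a4b at 2.23, Ms4a4a at 2.12, Ms4a6c at 2.06, Ms4a6d at 1.93 and Ms4a6b at 1.89, all still called. Here too Ms4a4a and Ms4a4b, at 2.96 and 1.56 CPM in PBS, passed the expression limit through the ProteinFx libraries. Their calls and the median follow in part from the limit. Scaling by total counts instead of TMM moved the median of all genes by -0.06 to -0.24 in the 4 comparisons with PBS. On that scale Ms4a7 turned to -0.12 and -0.19 with RNY1+/+ and RNY1-/- EVFx, whereas the other members tested kept their sign.

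**Figure D2:**
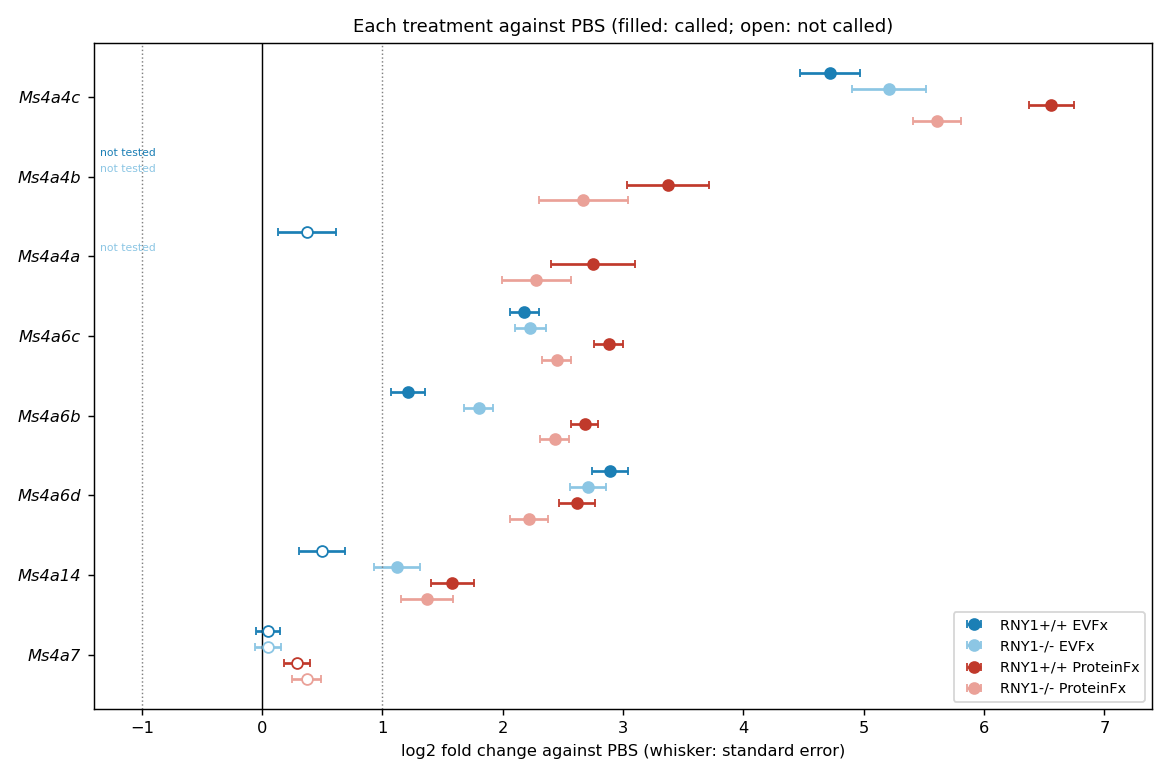
Log2 fold change against PBS (horizontal axis) of the 8 members tested in at least 1 comparison, for the 4 materials (colours), with standard errors as whiskers. Filled symbols are called and open symbols are not. Ms4a4c lies farthest right, at 4.72 to 6.56, and Ms4a7 lies near 0, at 0.05 to 0.37.

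The levels of several members differed between the fractions. Compared with RNY1+/+ EVFx, RNY1+/+ ProteinFx libraries had 5 of 8 members called higher, where 6.71% of 10444 genes were. The log2 fold changes were 2.38 for Ms4a4a (standard error 0.29), 1.89 for Ms4a4b (0.21), 1.85 for Ms4a4c (0.18), 1.48 for Ms4a6b (0.12) and 1.08 for Ms4a14 (0.11). Ms4a6c, at 0.71 (0.10), and Ms4a7, at 0.24 (0.08), were not called, and Ms4a6d was lower with ProteinFx, at -0.26 (0.08). The median was 1.28 over the members and -0.02 over all genes. The Ms4a4 genes thus led, Ms4a6b and Ms4a6c followed, and Ms4a6d went the other way. The Ms4a14 value was 0.76 and no longer called with length and GC trends removed, in a comparison where fold changes followed GC content over all genes (rho of -0.51).

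The same comparison was made for RNY1-/- donors. Of 8 members, 2 were called higher with ProteinFx than with EVFx, where 4.98% of 10418 genes were. These were Ms4a4a, at a log2 fold change of 2.40 (standard error 0.27), and Ms4a4b, at 1.09 (0.21), which fell to 0.96 and out of the calls without RNY1-/- EVFx replicate 3. Ms4a6b was at 0.64 (0.13), Ms4a4c at 0.41 (0.24), Ms4a7 at 0.33 (0.10), Ms4a14 at 0.25 (0.16), Ms4a6c at 0.23 (0.11) and Ms4a6d at -0.48 (0.10). The median was 0.37 over the members and 0.02 over all genes. Ms4a4a thus differed between the fractions by nearly the same amount for either donor genotype, whereas the Ms4a4c difference was 1.85 for RNY1+/+ and 0.41 for RNY1-/- donors. Ms4a4a, at 2.31 CPM with RNY1-/- EVFx, passed the expression limit through the RNY1-/- ProteinFx libraries. Its call for RNY1-/- donors and the median of 0.37 follow in part from the limit.

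The comparison of donors set macrophages that received RNY1-/- material against those that received RNY1+/+ material, with genotype and colony of the donors not told apart. Within EVFx, Ms4a6b and Ms4a14 had higher means with RNY1-/- than with RNY1+/+ material at an adjusted p under 0.05, with overlapping ranges. Of all genes, 52.1% had an adjusted p under 0.05 there. Ms4a4c also had a higher mean, without passing the test. Within ProteinFx, Ms4a4c, Ms4a4b, Ms4a6c and Ms4a6d were lower with RNY1-/- material at an adjusted p under 0.05, which 5.57% of all genes had. No member passed both limits of the call in either fraction. The adjusted p-values that follow are those of edgeR's quasi-likelihood test, adjusted over all genes by Benjamini-Hochberg, and say where a member stands in that fit.

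In EVFx, 0 of 7 members tested were called, by edgeR and by DESeq2, where 2.35% of 10321 genes were. At any fold change, 2 members had an adjusted p under 0.05, as 52.1% of all genes did, and 3 had an unadjusted p under 0.05. The log2 fold change was 0.63 in Ms4a14 (standard error 0.12, adjusted p = 0.0011) and 0.60 in Ms4a6b (0.14, adjusted p = 0.0030). Ms4a4c was at 0.49 (0.26, adjusted p = 0.13), Ms4a4b at 0.11 (0.27), Ms4a6c at 0.05 (0.11), Ms4a7 at 0.01 (0.07) and Ms4a6d at -0.17 (0.07, adjusted p = 0.060). The median was 0.11 over the members. In this comparison fold changes followed GC content over all genes (rho of -0.67), and the part of this in the members' values was examined by removing the length and GC trends. The values were then 0.35 for Ms4a14 (adjusted p = 0.026), 0.23 for Ms4a6b (adjusted p = 0.17) and 0.13 for Ms4a4c, while Ms4a6d was at -0.37 (adjusted p = 0.0043) and Ms4a7 at -0.23 (adjusted p = 0.025).

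In ProteinFx, 0 of 8 members were called, by edgeR and by DESeq2, where 1.82% of 10471 genes were. At any fold change, 4 members had an adjusted p under 0.05, where 5.57% of all genes did, and the same number had an unadjusted p under 0.05. The log2 fold changes were -0.94 for Ms4a4c (standard error 0.15, adjusted p = 0.0027), -0.69 for Ms4a4b (0.15, adjusted p = 0.020), -0.42 for Ms4a6c (0.10, adjusted p = 0.025) and -0.39 for Ms4a6d (0.10, adjusted p = 0.037). Ms4a4a was at -0.47 (0.30, adjusted p = 0.44), Ms4a6b at -0.24 (0.12, adjusted p = 0.28), Ms4a14 at -0.20 (0.16, adjusted p = 0.54) and Ms4a7 at 0.10 (0.10, adjusted p = 0.67). The median was -0.40 over the members and 0.02 over all genes. Ms4a4c lay just short of the fold limit and passed it, at -1.03, -1.06 and -1.12, without RNY1+/+ ProteinFx replicate 3, without RNY1-/- ProteinFx replicate 3, and without RNY1-/- ProteinFx replicates 3 and 4. Without RNY1-/- ProteinFx replicates 1 and 2, Ms4a4c was at -0.77 (adjusted p = 0.0066) and Ms4a4b at -0.62 (adjusted p = 0.073). With length and GC trends removed, Ms4a4c was at -0.92 (adjusted p = 1.0e-04).

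**Figure D3:**
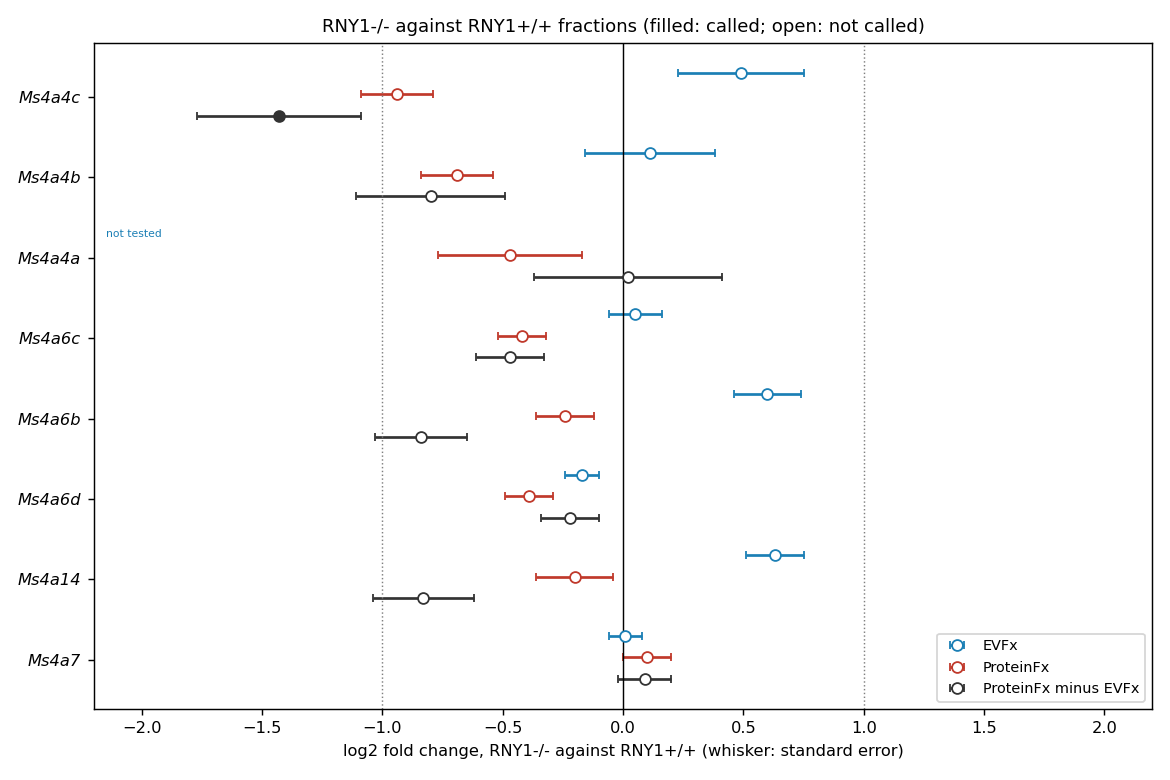
Log2 fold change of RNY1-/- against RNY1+/+ material (horizontal axes) of the members in EVFx, in ProteinFx, and the difference between these effects, with standard errors as whiskers and dotted lines at 1 and -1. Filled symbols are called, and the 1 filled symbol is the Ms4a4c difference of -1.43.

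The effect of the donor's genotype differed between the fractions most for Ms4a4c. The difference was tested as an interaction over the 16 libraries that received a fraction, ProteinFx minus EVFx. For Ms4a4c it was -1.43 on the log2 scale (standard error 0.34, adjusted p = 0.0070), the 1 member called lower of 8 tested, where 2.46% of 10445 genes were. At any size, 4 members had an adjusted p under 0.05, where 33.0% of all genes did. The others were Ms4a6b at -0.84 (0.19, adjusted p = 0.0058), Ms4a14 at -0.83 (0.21, adjusted p = 0.0096) and Ms4a6c at -0.47 (0.14, adjusted p = 0.020). Ms4a4b was at -0.80 (0.31, adjusted p = 0.052), Ms4a6d at -0.22 (0.12), Ms4a7 at 0.09 and Ms4a4a at 0.02. The median was -0.64 over the members.

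The Ms4a4c difference was not called without RNY1-/- ProteinFx replicates 1 and 2, at -1.25 (adjusted p = 0.069). Over all genes the interaction followed GC content (rho of 0.6). With length and GC trends removed, Ms4a4c was at -1.04 (adjusted p = 0.028) and still called, Ms4a14 at -0.51 (adjusted p = 0.037), Ms4a6b at -0.43 (adjusted p = 0.070) and Ms4a6c at -0.19. Total counts moved the median of all genes by 0.16 in this comparison. Tmem176a was at 1.02 (standard error 0.30, adjusted p = 0.017). Its RNY1-/- ProteinFx libraries were at 11.9 and 10.4 CPM in replicates 1 and 2, above the RNY1+/+ ProteinFx range of 6.28 to 7.66 CPM, and at 5.18 and 4.41 CPM, below it, in replicates 3 and 4.

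Within libraries, the paired genes of like sequence did not keep a fixed ratio. The Ms4a4b CPM was 10.2% ± 6.50 of the Ms4a4c CPM in PBS (2.47% to 17.9%). It was 1.05% with RNY1+/+ EVFx, 0.831% with RNY1-/- EVFx, 1.11% with RNY1+/+ ProteinFx and 1.34% with RNY1-/- ProteinFx, and no treated library was above 1.48%. These are ratios of counts and not of transcripts per length. The Ms4a6b CPM was 78.2% ± 9.94 of the Ms4a6c CPM in PBS, 39.4% ± 4.85 with RNY1+/+ EVFx and 57.6% ± 2.55 with RNY1-/- EVFx. It was 67.8% ± 8.39 with RNY1+/+ ProteinFx and 76.3% ± 6.82 with RNY1-/- ProteinFx. Each RNY1-/- EVFx library (55.7% to 61.2%) was above each RNY1+/+ EVFx library (32.3% to 42.7%), and the ProteinFx ranges overlapped.

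**Figure D4:**
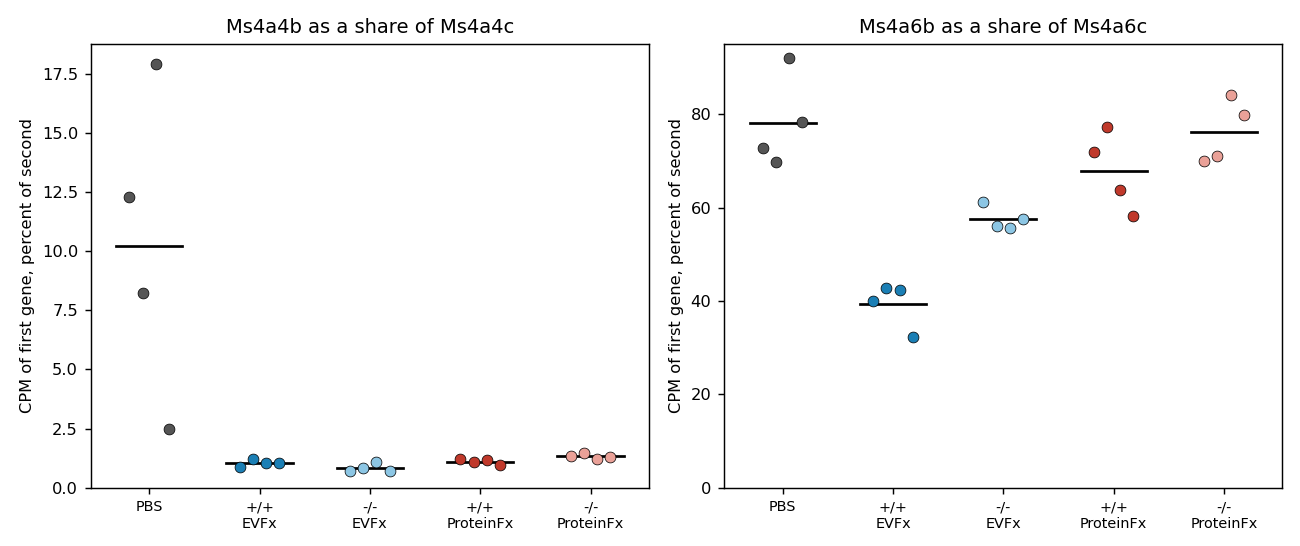
Ms4a4b as a percentage of Ms4a4c and Ms4a6b as a percentage of Ms4a6c (vertical axes, ratios of CPM) in each of the 20 libraries by treatment group. The first ratio drops from a mean of 10.2% in PBS to 0.831% to 1.34% in treated groups, and the second is lowest with RNY1+/+ EVFx, at 39.4%.

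Reads that fit several genes bear on these ratios, because the authors split them into fractions. Fractional counts appeared in 14 of 20 libraries for Ms4a4c, 13 for Ms4a4b, 10 for Ms4a6b and 19 for Ms4a6c, and in 6 or fewer for the other 5 members. Of the 50-base words of the annotated transcript, 8.48% were shared with another gene for Ms4a4c, 4.19% for Ms4a4b, 11.3% for Ms4a6c and 5.89% for Ms4a6b. In the last 500 bases, where 3' libraries have most of their reads, these shares were 11.8% for Ms4a4c and 13.7% for Ms4a6c and 0 for Ms4a4b and Ms4a6b. The low level of Ms4a4b beside the far higher one of Ms4a4c in treated libraries is therefore uncertain, and how many of its reads came from its neighbour was not tested.

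The shape over the 5 groups was compared between genes as the root mean square (RMS) difference of centred group means of log2 CPM, a description over 5 points that share their libraries. Between members, the closest shapes were those of Ms4a4b and Ms4a6b (RMS 0.29), Ms4a6b and Ms4a6c (0.36), Ms4a6c and Ms4a6d (0.39) and Ms4a6b and Ms4a14 (0.39), and the farthest those of Ms4a4c and Ms4a7 (2.17). Among 7456 other genes, those closest to Ms4a4c were the long noncoding AW112010 (RMS 0.11), Ifi44 (0.36) and Ifi206 (0.38). Those closest to Ms4a6b were Mndal (0.10), Srgn (0.11), which encodes the granule proteoglycan serglycin, and Ifi204 (0.13). The genes close to Ms4a6c included BE692007 (0.08) and Rnf213 (0.11).

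Ms4a6d was closest in shape to H2-T22 (RMS 0.14), a nonclassical MHC class I gene, Pde4b (0.16) and Slc31a2 (0.16). The nearest shapes to Ms4a4b were Glrx (0.14), the costimulatory gene Cd86 (0.20) and the guanylate-binding protein Gbp9 (0.20). To Ms4a4a they were Fcgr4 (0.23), an activating Fc receptor, the prostaglandin receptor Ptger4 (0.23) and Ccnd2 (0.27). Ms4a14 was closest to Rbl1 (0.03), Aftph (0.05) and Peli1 (0.08), and the nearly level Ms4a7 to Nudt21, Wdr45b and Ppp6r3 (0.03 each).

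**Figure D5:**
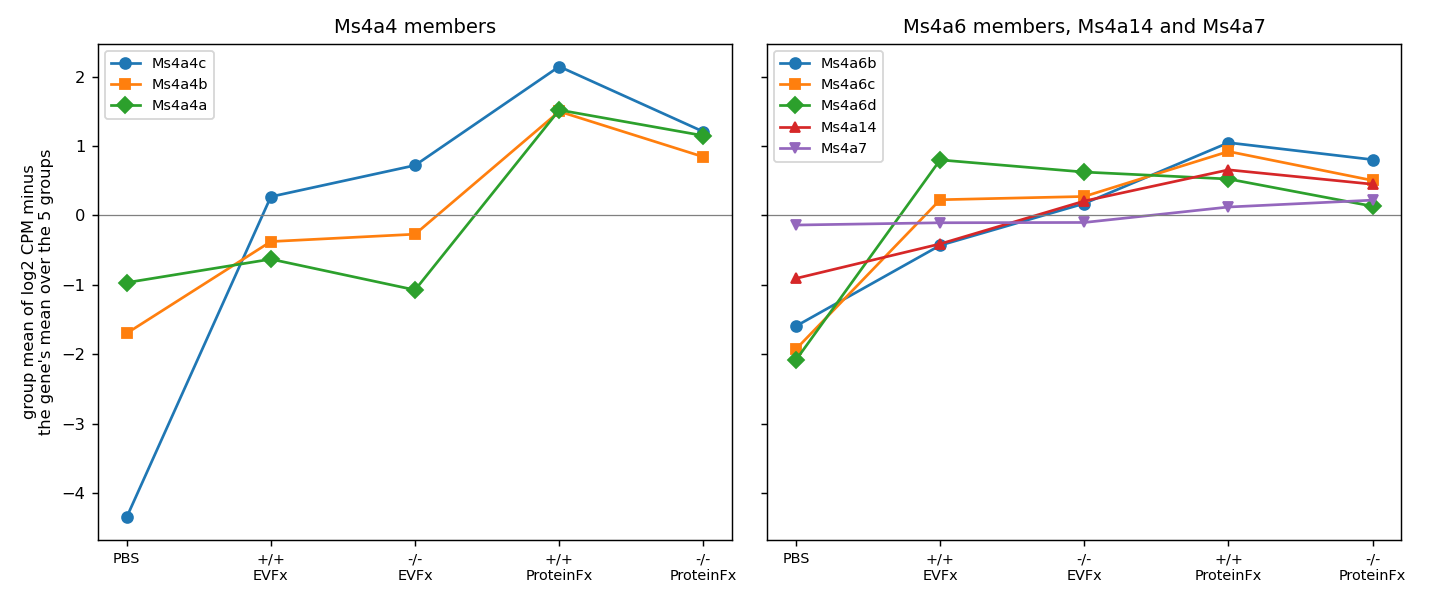
Group mean of log2 CPM minus the gene's mean over the 5 groups (vertical axis) for the 3 Ms4a4 members (left panel) and for the Ms4a6 members, Ms4a14 and Ms4a7 (right panel). Most lines peak at RNY1+/+ ProteinFx, whereas Ms4a6d peaks at RNY1+/+ EVFx and Ms4a7 at RNY1-/- ProteinFx.

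Genes for receptors, adaptors and enzymes tied to MS4A proteins were examined beside the members. Of 10 such genes listed, 9 were tested, since the IgE receptor gene Fcer2a had no count. Against PBS, 4, 4, 2 and 2 of the 9 were called lower with RNY1+/+ EVFx, RNY1-/- EVFx, RNY1+/+ ProteinFx and RNY1-/- ProteinFx, where 8.20%, 13.5%, 12.4% and 7.99% of all genes were. Trem2 fell from 505 ± 142 CPM in PBS to 93.5 ± 9.23 and 79.6 ± 7.75 CPM with RNY1+/+ and RNY1-/- EVFx and to 94.3 ± 20.0 and 164 ± 35.3 CPM with RNY1+/+ and RNY1-/- ProteinFx. Its log2 fold changes were -2.26, -2.43, -2.26 and -1.57, all called lower. Tyrobp, the signalling adaptor of TREM2, was called lower with all 4 materials as well, at -1.12, -1.36, -1.47 and -1.19. Syk and Fcer1g, a kinase and an adaptor of such receptors, were at 0.99 and 0.88 with RNY1+/+ EVFx and -0.11 and 0.06 with RNY1+/+ ProteinFx, not called.

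Clec7a, which encodes dectin-1, fell from 320 ± 25.9 CPM in PBS to 89.1 ± 18.3 CPM with RNY1+/+ EVFx (log2 fold change -1.67) and to 104 ± 23.5 CPM with RNY1-/- EVFx (-1.39). It was at 291 ± 86.8 CPM with RNY1+/+ ProteinFx (0.03) and 415 ± 27.1 CPM with RNY1-/- ProteinFx (0.45), neither called. Ms4a4a was high in these ProteinFx groups, in which Clec7a was near or above its PBS level, but low in PBS itself, at 2.96 ± 0.941 CPM. A link between the levels of these genes was not tested. Cd33, a sialic acid receptor whose human locus is studied beside MS4A, was called lower with both EVFx (-2.0 and -1.61) and not with ProteinFx (0.34 and -0.42). Adam17, a sheddase that cleaves TREM2, was called higher with RNY1-/- EVFx (1.09) and RNY1+/+ ProteinFx (1.17) and was at 0.97 and 0.86, not called, with RNY1+/+ EVFx and RNY1-/- ProteinFx.

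Other programmes of the macrophages give the setting in which the members moved, from lists written with earlier results of these data known. All 15 interferon-stimulated genes listed were called higher with each of the 4 materials, where 8.24%, 9.02%, 8.96% and 6.31% of all genes were with RNY1+/+ EVFx, RNY1-/- EVFx, RNY1+/+ ProteinFx and RNY1-/- ProteinFx. They had median log2 fold changes of 3.60 and 3.41 for RNY1+/+ and RNY1-/- EVFx and 3.88 and 3.18 for RNY1+/+ and RNY1-/- ProteinFx. Between donors, their median was 0.03 in EVFx and -0.64 in ProteinFx, where 5 were called lower with RNY1-/- material and 1.82% of all genes were called in either direction. Among the 5 were Mx1 (-1.26), Rsad2 (-1.39) and Cxcl10 (-2.36). Of 12 NF-kB genes listed, 11 were tested, of which 10, 10, 11 and 7 were called higher than PBS with the 4 materials in the same order and beside the same shares of all genes. Il1b and Ptgs2, at 0.478 and 0.791 CPM in PBS, passed the expression limit through the treated libraries. These counts of calls therefore follow in part from the limit. Between donors, 2 of these 11 were called lower with RNY1-/- material in EVFx, where 2.35% of all genes were called in either direction, and 9 in ProteinFx, where 1.82% were.

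Of the 16 resident macrophage genes, 13 were tested against PBS, and 8 were called lower with each EVFx, 5 with RNY1+/+ ProteinFx and 3 with RNY1-/- ProteinFx, where 8.20%, 13.5%, 12.4% and 7.99% of all genes were. Gpr34, at 30.2 CPM in PBS, was at 0.265 and 0.393 CPM with RNY1+/+ and RNY1-/- EVFx and at 0.653 CPM with RNY1+/+ ProteinFx. It passed the expression limit there through the PBS libraries. Folr2, the beta folate receptor, fell from 66.2 ± 18.9 CPM in PBS to 17.9 ± 5.04, 13.8 ± 3.29, 19.5 ± 1.52 and 25.6 ± 8.41 CPM with the 4 materials in the same order, at log2 fold changes of -1.70, -2.01, -1.60 and -1.28, all called lower. Of the 12 genes of type 2, or alternative, activation, 7 were tested with ProteinFx. Of these, 6 were called higher with either ProteinFx, where 8.96% and 6.31% of all genes were with RNY1+/+ and RNY1-/- ProteinFx. The 1 called lower was Clec10a (-2.03) with RNY1+/+ ProteinFx, where 12.4% of all genes were. Retnla, Ccl17, Ccl22, Mgl2 and Irf4 were not tested, with group means of 0 to 0.810 CPM with ProteinFx. Some of the genes called, such as Arg1, passed the expression limit through the ProteinFx libraries alone, so the counts of calls are not set against those with EVFx. With EVFx, 4 were tested and 1 was called higher and 1 lower with either material. Of all genes, 8.24% and 9.02% were called higher and 8.20% and 13.5% lower with RNY1+/+ and RNY1-/- EVFx. Arg1, the arginine-degrading enzyme of alternative activation, rose from 0.908 ± 0.345 CPM in PBS to 140 ± 12.8 and 188 ± 40.2 CPM with RNY1+/+ and RNY1-/- ProteinFx and was at 0.286 ± 0.287 and 0.312 ± 0.466 CPM with the EVFx. The ProteinFx groups in which Arg1 was high were thus the groups in which Ms4a8a exceeded 3 counts, there in 7 of 8 libraries.

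Markers of cells that could have come with the fluid or the culture were summed beside these results. The 5 lung epithelial markers summed to 2.17 to 15.9 CPM over the 20 libraries with Sftpc and Sftpa1 at 0, and the 4 dendritic cell markers to at most 0.797 CPM. Neutrophil markers summed to 141 to 351 CPM, nearly all from S100a8 and S100a9, with at most 1 count of Ly6g. The 5 fibroblast markers summed to 10.8 to 51.4 CPM. Of the 4 eosinophil markers, the summed level was 7.17 to 13.5 CPM in PBS, 0.801 to 2.46 CPM with EVFx and 12.3 to 21.1 CPM with ProteinFx, most of it from Ccr3, while Epx was at 0 in all 20 libraries. Both this sum and Ms4a4a were higher with ProteinFx than with EVFx, while with EVFx the sum was below PBS and Ms4a4a overlapped it. The part of these cells in the members' values was not tested.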

How the data were processed

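RNA from 20 libraries of mouse bone marrow-derived macrophages, 4 per treatment, was sequenced from the 3' end with unique molecular identifiers (UMIs). The authors deposited expected counts per gene, in which reads that map to several places were split as fractions, and CPM, the count over the library total; strand-specific counting followed UMI-based removal of duplicates. The submitters' processing notes name fastp 0.24.0, STAR 2.7.11, Subread 2.1.1 and build GRCm39. Rows without a gene name held 0.592% to 0.841% of counts.

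Expected counts were rounded and tested with edgeR 4.0.16 (glmQLFit, glmQLFTest, TMM) in R 4.3.3, with the 8 libraries of 2 groups per fit, on genes that passed filterByExpr and averaged 3 CPM or more. Genes were called where the p adjusted by Benjamini-Hochberg was under 0.05 and the log2 fold change exceeded 1 in size. Dividing the log2 fold change by the square root of F gave its standard error. Alternatives were DESeq2 1.42.0, total counts, other filters and rounding, spline trends of length and GC content with 4 degrees of freedom, a replicate block and leaving out libraries. Simulated counts with 1 fixed dispersion were fitted for RNY1+/+ ProteinFx against PBS only, at a lower fold limit than that of the calls. The donor comparisons and the interaction were not simulated.

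The members, the gene lists and the tests were chosen with earlier results of these data known. Named were the 9 members, other Ms4a genes, Tmem176a, Tmem176b, list genes, and per member the 3 genes of closest shape with a mean of at least 10 CPM. Some genes under this rule are not reported here. Libraries with the same replicate number deviated together in RNY1-/- EVFx against PBS (correlations of 0.129 to 0.381) and in RNY1-/- ProteinFx against RNY1-/- EVFx (0.218 to 0.399), and not in every pair of the other 6 comparisons.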

Additional observations from a re-analysis of the deposited data

Results flagged for a closer look

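Of 42 combinations of a member and a group, 2 held a library whose gap to the next was wide against the range of its group, and chance gives about 1 in 20. In Ms4a6d, RNY1-/- ProteinFx replicate 2 was at 538 CPM, apart from the other 3 at 445 to 459 CPM. In Ms4a7, PBS replicate 3 was at 1079 CPM, below the other 3 at 1309 to 1337 CPM, and this library was also the farthest from its group over all genes.

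The effect of the donor's RNY1 genotype on Ms4a4c differed between ProteinFx and EVFx by -1.43 on the log2 scale (standard error 0.34, adjusted p = 0.0070 by edgeR's quasi-likelihood test of the interaction). All 4 RNY1-/- ProteinFx libraries were below all 4 RNY1+/+ ProteinFx libraries, whereas the EVFx groups overlapped. The adjusted p was 0.069 without RNY1-/- ProteinFx replicates 1 and 2.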

How the results depend on the processing

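Of 169 alternative counts of called members, 157 stayed within 1.5 times the reported count. By adjusted p alone, the count was 2 instead of 0 between donors in EVFx, 4 instead of 0 between donors in ProteinFx, 8 instead of 5 between RNY1+/+ fractions, 5 instead of 2 between RNY1-/- fractions and 4 instead of 1 for the difference of the genotype effects. Of all genes, 52.1% passed this limit between donors in EVFx, 5.57% between donors in ProteinFx and 33.0% for the difference. The shares between fractions are not given here, so the counts between fractions cannot be set against all genes. Leaving out RNY1-/- ProteinFx replicates 3 and 4 together gave 1 between donors in ProteinFx and 2 for the difference (Ms4a14 at -1.12), and leaving out replicates 1 and 2 gave 0 for the difference. With 1 library left out, the count ranged from 0 to 1 between donors in ProteinFx, from 1 to 2 between RNY1-/- fractions, and from 1 to 2 for the difference (2 without RNY1+/+ EVFx replicate 2, with Ms4a4b at -1.04). The cause of these changes was not tested. With the replicate block, the counts were 4, 5, 7 and 7 against PBS, 0 and 0 between donors, 5 and 2 between fractions and 1 for the difference, as without it. No member past the call limits changed sign. Ms4a7 against PBS turned to -0.12 with total counts and -0.10 with length and GC trends removed for RNY1+/+ EVFx (-0.02 to 0.09 with 1 library left out), to -0.19 and -0.33 for RNY1-/- EVFx, and to -0.11 without the trends for RNY1+/+ ProteinFx. Between RNY1+/+ fractions it was -0.01 without the trends. Between donors in EVFx, Ms4a7 was -0.06 with total counts, -0.03 with no filter, -0.01 with counts rounded down and -0.23 without the trends (-0.02 to 0.04 with 1 library left out). Ms4a6c there was -0.02 with total counts and -0.18 without the trends (-0.02 to 0.14), and Ms4a4b -0.36 without the trends (-0.03 to 0.34). Without RNY1-/- ProteinFx replicates 1 and 2, Ms4a14 was 0.06 between donors in ProteinFx, and without replicates 3 and 4 it was -0.05 between RNY1-/- fractions. The difference of genotype effects in Ms4a4a was -0.01 with counts rounded down and -0.24 without RNY1-/- ProteinFx replicates 3 and 4 (-0.20 to 0.29), and that in Ms4a6d 0.01 without the trends. Without the limit of 3 CPM, Ms4a4b was called higher than PBS with both EVFx, and with no filter on low counts Ms4a8a was called higher with both ProteinFx. Depth limits Ms4a8a and Ms4a4b most, since both held few counts in PBS.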
